A study of Mus musculus with 14 samples.

Results

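The genes described here are 35 mouse genes whose products carry out or follow microRNA silencing. They encode 3 GW182 proteins (Tnrc6a, Tnrc6b, Tnrc6c), 10 subunits of the CCR4-NOT deadenylase (Cnot1, Cnot2, Cnot3, Cnot4, Cnot6, Cnot6l, Cnot7, Cnot8, Cnot10, Cnot11) and 3 other deadenylase genes (Pan2, Pan3, Parn). There are 7 decapping genes (Dcp1a, Dcp1b, Dcp2, Edc3, Edc4, Patl1, Lsm1), 6 P-body, helicase and cap-linked genes (Ddx6, Lsm14a, Lsm14b, Eif4enif1, Mov10, Limd1), a poly(A)-binding protein and a 5′ exonuclease (Pabpc1, Xrn1), and 4 BTG and TOB adaptors (Btg1, Btg2, Tob1, Tob2). They were picked by name as partners of Argonaute and as decay factors, and their values played no part in the rule, though earlier results of these data were known. All 35 were found by Ensembl identifier among the 22598 genes of the deposited tables, and all 35 were among the 11591 genes that passed the filter on low counts. RNA was sequenced from CD4+ T cells of C57BL/6J mice, sorted from the spleen, activated, and grown under Th2 conditions, the state of helper T cells that drives allergy and defence against worms. The 14 libraries fall into Ago134 KO at day 14 (n = 3), WT at day 14 (n = 3), Ago134 KO at day 7 (n = 4) and WT at day 7 (n = 4). Ago134 KO stands for mice lacking Ago1, Ago3 and Ago4. Ago2 is not among the targeted genes, and every group was activated and polarized. How the alleles were made, whether the deletion was restricted to T cells, the age of the mice and any pooling of mice were not given in the sources used here. Nothing in the labels ties the libraries of a group to separate mice or cultures, so all p-values refer to the spread among these libraries, and that spread may be technical.

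Argonaute 2 can cut a target that pairs along most of the guide, but animal microRNAs usually pair in part and act through partner proteins. Argonaute loaded with a microRNA then recruits a GW182 protein, which binds poly(A)-binding protein and calls in the PAN2-PAN3 and CCR4-NOT complexes to shorten the poly(A) tail. The deadenylated mRNA is then decapped by DCP2 and its activators, often in cytoplasmic granules known as P-bodies, and digested by the exonuclease XRN1. BTG and TOB proteins bind the CCR4-NOT catalytic subunits and are known in lymphocytes as restraints on proliferation and as keepers of quiescence.

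Counts summed over the deposited genes ran from 23326248 to 35803197 reads per library, and every pair of libraries in a group differed beyond sampling noise. Ago1 had 2 reads in all over the Ago134 KO libraries of day 14, against 67 to 100 per WT library, and 0 reads in the Ago134 KO libraries of day 7, against 128 to 141 per WT library. Ago3 averaged 1.42 CPM in Ago134 KO and 2.86 CPM in WT at day 14, and 1.98 CPM in Ago134 KO and 3.64 CPM in WT at day 7. Ago4 averaged 3.93 CPM in Ago134 KO and 1.46 CPM in WT at day 14, and 3.17 CPM in Ago134 KO and 0.617 CPM in WT at day 7. Ago3 and Ago4 do not check the labels, since which exons were deleted was not given in the sources used here. Ago2 averaged 77.2 ± 11.5 CPM in Ago134 KO and 117 ± 8.40 CPM in WT at day 14, and 94.0 ± 12.9 CPM in Ago134 KO and 126 ± 5.18 CPM in WT at day 7. The 7 T cell markers summed to 5846 to 11357 CPM in every library, and the B cell, natural killer cell and erythroid lists each summed to under 5 CPM. Cd2 averaged 2776 CPM in Ago134 KO and 2071 CPM in WT at day 14, and 3332 CPM in Ago134 KO and 2109 CPM in WT at day 7. Cd4, which encodes one of the surface proteins used in the sort, had 145 to 231 CPM in Ago134 KO and 309 to 395 CPM in WT at day 14, without overlap, and 244 to 396 CPM in Ago134 KO and 324 to 457 CPM in WT at day 7. Of the Th2 markers, Il4ra, the most abundant, had 1391 to 3768 CPM in Ago134 KO and 5362 to 7431 CPM in WT at day 14, without overlap, and 1149 to 2232 CPM in Ago134 KO and 2190.1 to 2679 CPM in WT at day 7. Ccr8 averaged 349 CPM in Ago134 KO and 141 CPM in WT at day 14, and 37.3 CPM in Ago134 KO and 5.53 CPM in WT at day 7. Gata3 averaged 519 CPM in Ago134 KO and 439 CPM in WT at day 14, and 544 CPM in Ago134 KO and 536 CPM in WT at day 7, while Il13 stayed under 0.2 CPM in every library. Il4 averaged 9.70 CPM in Ago134 KO and 8.02 CPM in WT at day 14, and 2.83 and 1.36 CPM at day 7. For Il5 the means were 2.04 and 5.06 CPM at day 14, and 0.0625 and 0 CPM at day 7, in the same order. For Il1rl1 they were 71.3 and 66.4 CPM, and 8.87 and 19.3 CPM. For Ccr4 they were 126 and 125 CPM, and 79.5 and 74.5 CPM. Mast cell markers, of which Mcpt4, Mcpt8 and Ms4a2 were at 0 in every library, summed to 22.5 to 130 CPM in Ago134 KO and 1.07 to 5.69 CPM in WT at day 14. At day 7 they summed to 47.5 to 82.2 CPM in Ago134 KO and 30.8 to 64.7 CPM in WT. Cpa3 was the most abundant of this list. It averaged 52.3 CPM in Ago134 KO and 3.76 CPM in WT at day 14, and 64.8 CPM in Ago134 KO and 47.0 CPM in WT at day 7. The myeloid and dendritic list, with Flt3, Itgam, Itgax and Xcr1 at 0 throughout, summed to 15.9 to 27.1 CPM in Ago134 KO and 8.59 to 30.0 CPM in WT at day 14, and to 2.19 to 7.35 CPM in Ago134 KO and 1.17 to 2.59 CPM in WT at day 7. Adgre1 was the most abundant of that list, averaging 18.7 CPM in Ago134 KO and 12.9 CPM in WT at day 14. At day 7 it averaged 1.39 CPM in Ago134 KO and 1.23 CPM in WT. The CD8 pair of genes summed to 11.4 to 20.6 CPM in Ago134 KO and 6.32 to 7.92 CPM in WT at day 14, and to 10.5 to 21.0 CPM in Ago134 KO and 6.67 to 10.2 CPM in WT at day 7. That sum was nearly all Cd8b1, since Cd8a stayed at or under 0.302 CPM in every library. Whether the Cpa3, Adgre1 and Cd8b1 reads came from other cells was not tested. The part of any such cells, and of the Cd2, Cd4, Il4ra and Ccr8 differences, in the results was not tested either.

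Levels are given in CPM, read counts scaled to the library totals with TMM factors, and were compared between genes after division by coding length in kb. The coding length of the 35 genes ran from 402 bases (Lsm1) to 7131 bases (Cnot1), with a median of 1809 bases against 1396 bases for all tested genes. Btg1, a BTG adaptor of resting lymphocytes, had the highest level in each of the 4 groups, at 798 ± 174 CPM per kb in Ago134 KO and 917 ± 179.6 in WT at day 14, and 730.2 ± 42.2 in Ago134 KO and 718 ± 51.6 in WT at day 7 (mean ± SD). By library, Btg1 had 515, 362 and 358 CPM in Ago134 KO and 474, 565 and 380.1 CPM in WT at day 14, and 370.2, 407, 355 and 376 CPM in Ago134 KO and 351, 362, 359 and 409.9 CPM in WT at day 7, and the genotypes overlapped at both days. Its relative Btg2 ranked 2 or 3 in every group. Tnrc6a, which encodes a GW182 protein, had the lowest mean over the groups, at 1.16 ± 0.607 CPM per kb in Ago134 KO and 1.90 ± 0.679 in WT at day 14, and 1.89 ± 0.561 in Ago134 KO and 4.06 ± 1.88 in WT at day 7. The lowest 6 by that mean were Tnrc6a, Xrn1, Lsm14b, Tnrc6c, Pan3 and Tnrc6b, from 2.25 to 4.44 CPM per kb. The scaffold of the deadenylase, Cnot1, stood at 9.22 CPM per kb, while its small catalytic subunit Cnot8 stood at 101.

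**Figure D1:**
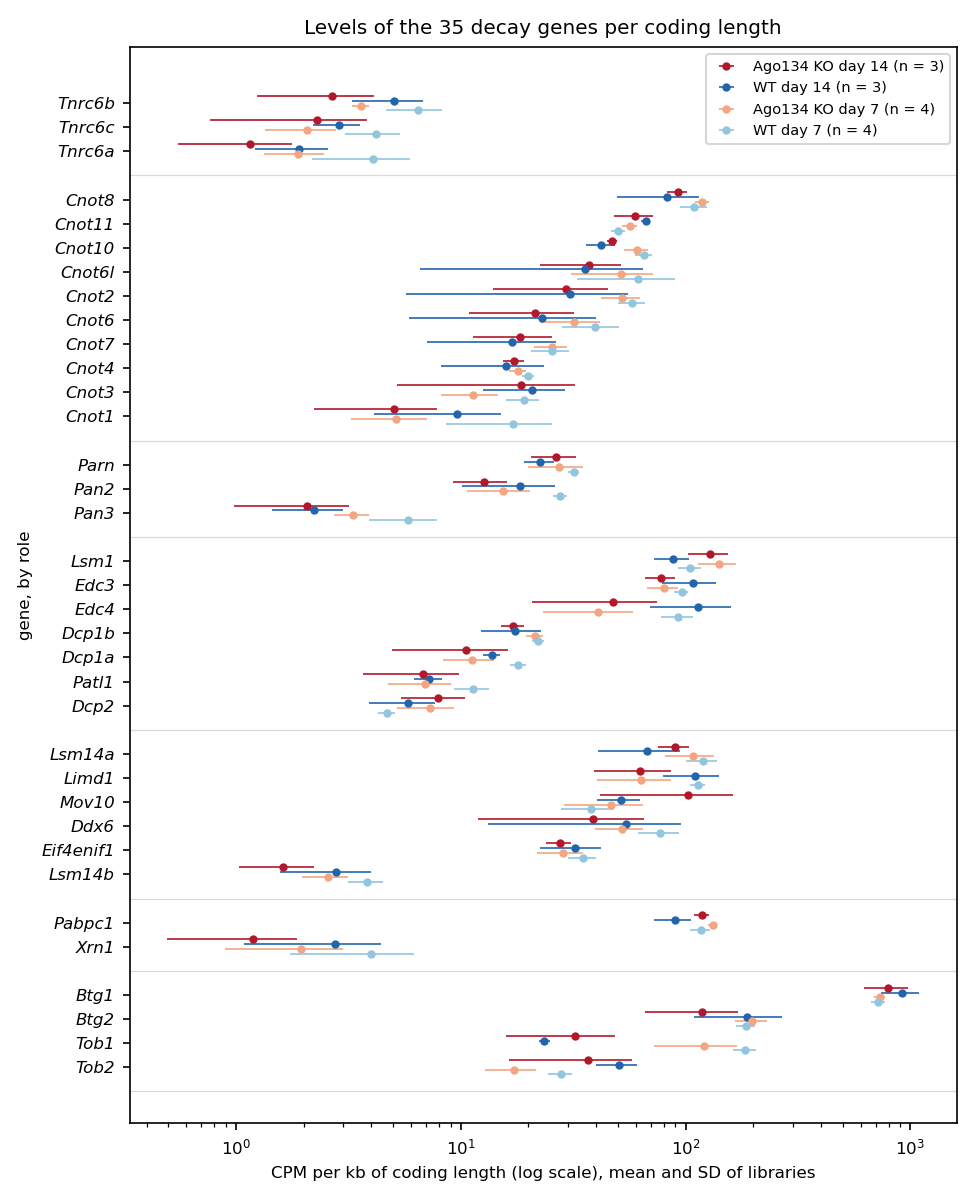
Level of each of the 35 genes in CPM per kb of coding length (log axis), as the mean and SD of the libraries of each group, with genes sorted by level within their role. Btg1 sits highest in all 4 groups, and Tnrc6a, Xrn1 and Lsm14b sit lowest by their mean over the groups.

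In most pairs of related genes the same gene had the higher level per kb in nearly every library. The ratio of Cnot8 to Cnot7, which encode interchangeable catalytic subunits of similar length, was 3.05 to 13.7 over the 14 libraries. Lsm14a exceeded Lsm14b, the other P-body scaffold of the same family, by 13.1 to 101 times. Tnrc6b exceeded Tnrc6a in each library, by 1.39 to 2.85 times. Its ratio to Tnrc6c ran from 0.713 to 3.16, so the order of that pair depended on the library. Cnot6l exceeded Cnot6, the other catalytic subunit of the complex, in all but 1 library, where the ratio was 0.83. Tob1 and Tob2 changed their order with day in all but 1 library.

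At day 7 the question was whether loss of 3 Argonautes came with different levels of the effector genes. None of the 35 genes passed the test (adjusted p under 0.05, edgeR's quasi-likelihood F-test, p-values adjusted after Benjamini and Hochberg over all 11591 genes), in a comparison where 0.0949% of all tested genes did (0.0518% higher, 0.0431% lower). At an unadjusted p under 0.05, 11 were lower and 2 higher, against 12.1% lower and 11.4% higher of all tested genes (23.4% in all). DESeq2 called 1 of the 35 and limma-voom with sample weights called 19, where DESeq2 called 3.02% and limma-voom 43.5% of all genes they fitted. The log2 fold change was below 0 for 27 of the 35 (77.1%), against 50.8% of all tested genes, and the median was -0.29, against -0.01. The libraries of the genotypes did not overlap for 11 genes that were lower in Ago134 KO (31.4%, against 12.9% of all tested genes) and for 1 that was higher (Dcp2, against 9.27%). In bulk RNA, fewer cells of a type and less RNA per cell cannot be told apart.

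The 3 GW182 genes had lower values in Ago134 KO at day 7. Tnrc6a stood at 8.22, 14.7, 12.1 and 8.10 CPM in the Ago134 KO libraries of day 7, against 33.2, 31.6, 13.5 and 14.3 CPM in the WT libraries (ENSMUSG00000052707, GRCm38 chromosome 7, 123123885 to 123195296). Tnrc6b stood at 20.01, 21.6, 17.7 and 18.9 CPM in the Ago134 KO libraries of day 7, against 44.1, 42.4, 30.7 and 23.4 CPM in the WT libraries (ENSMUSG00000047888, GRCm38 chromosome 15, 80711313 to 80941085). Tnrc6c stood at 15.5, 14.0, 11.2 and 6.29 CPM in the Ago134 KO libraries of day 7, against 28.6, 30.3, 20.1 and 16.8 CPM in the WT libraries (ENSMUSG00000025571, GRCm38 chromosome 11, 117654289 to 117763439). The groups did not overlap for Tnrc6b and Tnrc6c, and for Tnrc6a WT libraries 1 and 2 lay far above the other 6 libraries. The log2 fold changes were -1.10 ± 0.40 for Tnrc6a, -0.85 ± 0.34 for Tnrc6b and -1.03 ± 0.38 for Tnrc6c (± SE), with adjusted p = 0.155, 0.170 and 0.156 in that order. These 3 genes have some of the longest coding sequences of the set, at 5433 to 5703 bases.

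Among the 10 CCR4-NOT genes, the median log2 fold change at day 7 was -0.15, and 8 were below 0. Cnot1, the scaffold that holds the complex together (ENSMUSG00000036550, GRCm38 chromosome 8, 95719451 to 95807464), differed most. Cnot1 stood at 42.6, 52.4, 31.9 and 20.7 CPM in the Ago134 KO libraries of day 7, against 185, 161, 80.8 and 60.1 CPM in the WT libraries. Every Ago134 KO library lay below every WT library, and the WT libraries ran from 60.1 to 185 CPM. The log2 fold change was -1.72 ± 0.49, with adjusted p = 0.154 by edgeR and 0.0303 by DESeq2. Cnot3, a regulatory subunit, was also lower without overlap, at 25.6 ± 7.25 CPM in Ago134 KO and 43.1 ± 7.11 CPM in WT (-0.75 ± 0.38, adjusted p = 0.240). Part of its coding sequence (147 bases) overlaps Leng1, a gene on the other strand, and whether counting used strand was not given in the sources used here. The exonuclease subunits Cnot7 and Cnot8 were at -0.00 ± 0.33 and 0.12 ± 0.22, and the scaffold-bound Cnot10 and Cnot11 were at -0.11 ± 0.15 and 0.17 ± 0.16, with overlapping libraries. Cnot7 shares 57 coding bases with Zdhhc2, also on the other strand. The core subunit Cnot2, the ubiquitin ligase subunit Cnot4 and the nucleases Cnot6 and Cnot6l lay between -0.30 and -0.15.

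Pan2, the catalytic subunit of PAN2-PAN3, stood at 55.8 ± 17.4 CPM in Ago134 KO and 99.4 ± 6.97 CPM in WT (-0.83 ± 0.28, adjusted p = 0.154), without overlap. Pan3, its RNA-binding adaptor, was at -0.82 ± 0.37 (adjusted p = 0.207) and Parn, a cap-binding deadenylase, at -0.22 ± 0.22. Of the 7 decapping genes, the scaffold Edc4 differed most. Edc4 stood at 264, 196, 139 and 90.2 CPM in the Ago134 KO libraries of day 7, against 481, 390.2, 371 and 325 CPM in the WT libraries. The highest Ago134 KO library lay below the lowest WT library, and the log2 fold change was -1.18 ± 0.37 (adjusted p = 0.154). The decapping activator Dcp1a and the bridging factor Patl1 were lower without overlap too, at -0.68 ± 0.28 and -0.72 ± 0.29. Dcp2, the decapping enzyme itself, ran the other way, at 6.76, 8.78, 9.49 and 13.2 CPM in Ago134 KO and 5.51, 6.51, 5.97 and 6.65 CPM in WT (0.64 ± 0.28, adjusted p = 0.199). Lsm1, the subunit that sets the cytoplasmic LSM ring apart, was at 47.3, 48.9, 59.7 and 70.4 CPM in Ago134 KO and 38.4, 39.3, 41.9 and 49.2 CPM in WT (0.42 ± 0.20, adjusted p = 0.213). The enhancer of decapping Edc3 and the DCP2 partner Dcp1b were at -0.26 ± 0.19 and -0.05 ± 0.20.

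Of the 6 P-body, helicase and cap-linked genes, 5 had a log2 fold change below 0 at day 7. Limd1 stood at 178, 149, 105 and 75.3 CPM in the Ago134 KO libraries of day 7, against 250.5, 231, 213 and 218 CPM in the WT libraries. All Ago134 KO libraries were below all WT libraries for this gene, a LIM protein that helps microRNA silencing, at -0.84 ± 0.28 (adjusted p = 0.154). Mov10, an RNA helicase that associates with Argonaute and is induced by interferon, was at 0.30 ± 0.37, with overlapping libraries. The helicase gene Ddx6, the eIF4E-binding shuttle Eif4enif1 and the scaffold genes Lsm14a and Lsm14b were at -0.57 ± 0.46, -0.29 ± 0.22, -0.15 ± 0.24 and -0.58 ± 0.33. The exonuclease gene Xrn1 had a low level and a wide spread, at 10.1 ± 5.49 CPM in Ago134 KO and 20.7 ± 11.6 CPM in WT (-1.03 ± 0.55, adjusted p = 0.264). Pabpc1, the poly(A)-binding protein gene, was at 0.18 ± 0.15. Its reads may be shared with near-identical copies, so its values are uncertain. Of the adaptors, Btg1 averaged 377 ± 21.8 CPM in Ago134 KO and 371 ± 26.6 CPM in WT, a log2 difference of 0.02 ± 0.16 with a 95% interval of -0.32 to 0.37. Tob2 was lower without overlap (-0.69 ± 0.30, adjusted p = 0.184) and Tob1 was at -0.60 ± 0.32 with overlap. Btg2 was at 0.09 ± 0.29.

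**Figure D2:**
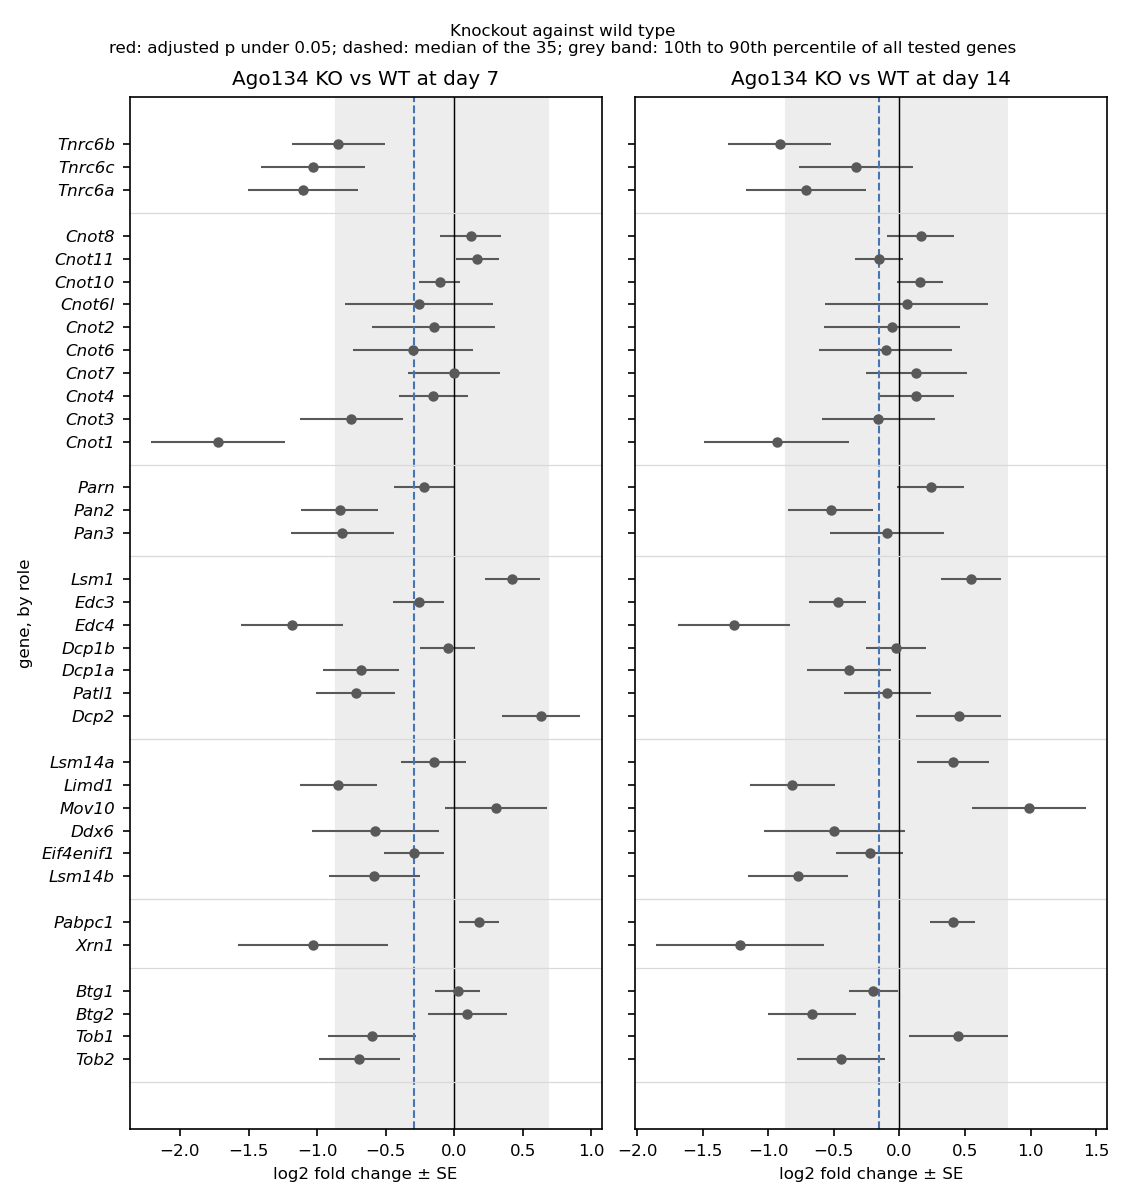
Log2 fold change ± SE of Ago134 KO over WT for each gene at day 7 and at day 14, by role. No gene passes an adjusted p of 0.05 at either day; the dashed median lies at -0.29 at day 7 and -0.16 at day 14, inside the grey band of the 10th to 90th percentile of all tested genes.

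Coding length moved with the genotype difference at day 7, in the 35 genes and in all tested genes alike. Across the 35 genes, Spearman's rho between log2 coding length and log2 fold change was -0.66, and across all 11591 tested genes it was -0.63 (genes share the same libraries and are not independent replicates). The slope of each library's deviation per doubling of coding length ran from -0.37 to 0.02 on the log2 scale in the Ago134 KO libraries and from 0.07 to 0.27 in the WT libraries. The 17 genes longer than the median of the set had a median log2 fold change of -0.82, against -0.46 for the 4072 tested genes above that length. The 18 others had a median of -0.15, against 0.19 for the 7519 tested genes up to that length. Sequencing runs were inferred from identifiers whose meaning was not given, as set out below. Within inferred run 1, which holds all 4 Ago134 KO libraries of day 7 and 3 of the WT libraries, the log2 ratios of mean CPM were -0.88 for Tnrc6a, -0.72 for Tnrc6b, -0.93 for Tnrc6c, -1.45 for Cnot1, -1.07 for Edc4 and -0.80 for Limd1.

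With each library's trend over coding length removed, the GW182 differences shrank. Tnrc6a was at -0.32, Tnrc6b at -0.08 and Tnrc6c at -0.31 in that fit (adjusted p = 0.743, 0.949 and 0.676), Cnot1 at -0.95 (0.399) and Edc4 at -0.58 (0.463). Limd1 moved less, to -0.69, and Tob2, a gene of 1038 coding bases, was at -0.88. The median of the 35 stayed at -0.28, against -0.05 for all tested genes, with 27 below 0 as before, and none passed the test (0 of 35 at an adjusted p under 0.05, lowest 0.399). Spearman's rho with coding length across the 35 was then 0.05. Mov10 and Dcp2 stood highest, at 0.87 and 0.55.

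**Figure D3:**
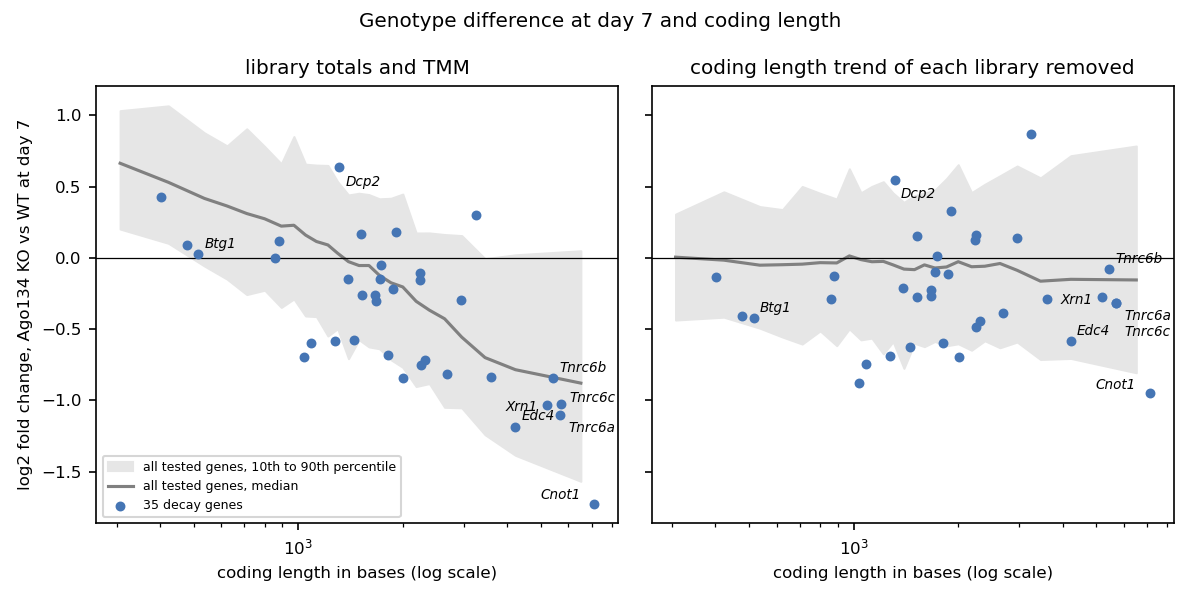
Log2 fold change of Ago134 KO over WT at day 7 against coding length (log axis), from library totals with TMM factors on the left and with each library's coding length trend removed on the right; points are the 35 genes, and the line and band are the median and the 10th to 90th percentile of all tested genes in 25 bins of about equal size. The GW182 genes and Edc4 lie inside the band around the falling line on the left and between -0.08 and -0.58 on the right, while Cnot1 stays lowest.

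At day 14 the same comparison again called none of the 35 genes with edgeR, where 1.42% of all tested genes were called (0.845% higher, 0.578% lower). DESeq2 called 0 and limma-voom 3 (Edc4, Limd1 and Btg2, each lower), where these tools called 5.99% and 16.7% of all genes they fitted. At an unadjusted p under 0.05, 4 were lower and 3 higher, against 10.3% lower and 11.4% higher of all tested genes (21.7% in all). The median log2 fold change was -0.16, against 0.01 for all tested genes, and 23 of the 35 were below 0 (65.7%, against 49.2%). None was lower without overlap of the libraries, where 5.25% of all tested genes were, and 1 was higher without overlap (Pabpc1, against 9.71%). With each library's coding length trend removed, the median of the 35 was -0.07, against -0.01 for all tested genes, with 21 below 0. With length and GC trends removed it was -0.14, against 0.02, with 23 below 0. Without removal, the 17 genes above the set's median length had a median of -0.23, against -0.34 for tested genes of that length. The 18 others had a median of -0.08, against 0.18.

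Edc4 had the smallest p. Edc4 stood at 134, 332 and 137 CPM in the Ago134 KO libraries of day 14, against 574, 605 and 266 CPM in the WT libraries. The groups overlapped through WT library 3, and the log2 fold change was -1.26 ± 0.43 (adjusted p = 0.128). Without that library Edc4 was at -1.55 (adjusted p = 0.0217), and 5 of the 35 genes were called, with Lsm14a higher and Edc3, Edc4, Limd1 and Btg2 lower, in a fit that called 22.5% of all tested genes. Without Ago134 KO library 2, Edc4 alone was called, at -1.83 (adjusted p = 0.0362), where 5.14% of all tested genes were. Edc4 missed the threshold in the other 4 fits that left out 1 library, and over all 6 it ran from -1.83 to -1.04, with an adjusted p up to 0.428. Limd1 stood at 103, 179.7 and 94.0 CPM in the Ago134 KO libraries of day 14, against 249.6, 263 and 151 CPM in the WT libraries. Its log2 fold change of -0.82 ± 0.32 (adjusted p = 0.171) was close to that of day 7. Pabpc1 stood at 218, 246 and 213 CPM in the Ago134 KO libraries of day 14, against 195, 135 and 183 CPM in the WT libraries, which placed every Ago134 KO library above every WT library (0.40 ± 0.17, adjusted p = 0.194). Within run 2, with 3 Ago134 KO and 2 WT libraries of day 14, the log2 ratio of mean CPM was -1.06 for Edc4, -0.67 for Limd1, -0.96 for Tnrc6a, -1.15 for Tnrc6b, -0.13 for Tnrc6c and 0.82 for Mov10.

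The GW182 genes overlapped between genotypes at day 14. Tnrc6a stood at 10.4, 5.73 and 3.65 CPM in the Ago134 KO libraries of day 14, against 11.1, 6.81 and 14.5 CPM in the WT libraries. Tnrc6b stood at 21.7, 15.6 and 6.24 CPM in the Ago134 KO libraries of day 14, against 27.8, 17.6 and 36.6 CPM in the WT libraries. Tnrc6c stood at 9.25, 23.0 and 6.94 CPM in the Ago134 KO libraries of day 14, against 15.7, 20.7 and 13.0 CPM in the WT libraries. The libraries overlapped for all 3 genes, and Ago134 KO library 3 was the lowest for each. The log2 fold changes were -0.71 ± 0.46, -0.91 ± 0.39 and -0.33 ± 0.43 for Tnrc6a, Tnrc6b and Tnrc6c (adjusted p = 0.379, 0.203 and 0.689). With 1 library left out they ran from -1.20 to -0.42 for Tnrc6a, -1.32 to -0.55 for Tnrc6b and -1.02 to -0.03 for Tnrc6c. The lowest values came without Ago134 KO library 1 for Tnrc6a and Tnrc6b and without Ago134 KO library 2 for Tnrc6c, and the highest without Ago134 KO library 3. With the coding length trend removed they were -0.14, -0.39 and 0.10, so that Tnrc6c changed sign. Cnot1 was at -0.94 ± 0.55 and -0.41 in the same fits. Mov10 was the gene with the highest log2 fold change. Mov10 stood at 127, 519.9 and 346 CPM in the Ago134 KO libraries of day 14, against 175, 127 and 199 CPM in the WT libraries. Ago134 KO libraries 2 and 3 lay above all WT libraries and library 1 at the level of the lowest (0.99 ± 0.43, adjusted p = 0.207). Lsm1 was at 0.54 ± 0.23 (adjusted p = 0.194), and at 0.13 with the length trend removed.

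The difference between the genotype effects of day 14 and day 7 was tested as an interaction, and 0 of the 35 genes passed with edgeR, where 0.0863% of all tested genes did (0.0604% higher, 0.0259% lower). At an unadjusted p under 0.05 there were 0 too, against 7.97% of all tested genes (3.46% higher, 4.51% lower), and DESeq2 called 0 and limma-voom 1 (Btg2), where these tools called 1.02% and 4.06% of all genes they fitted. The interaction was below 0 for 9 of the 35 (25.7%, against 44.3% of all tested genes), and the median was 0.20, against 0.06. With the coding length trend removed, 12 were below 0 and the median was 0.18, against 0.06. With length and GC trends removed, 15 were below 0 and the median was 0.05, against 0.10 for all tested genes. Without removal, the smallest p belonged to Tob1, at 1.05 ± 0.50 with a 95% interval of -0.01 to 2.11 (adjusted p = 0.629). Btg2 was at -0.76 ± 0.44 and Lsm14a at 0.56 ± 0.36 (adjusted p = 0.770 and 0.830). For Btg2 the values were 85.0, 38.9 and 45.6 CPM in Ago134 KO and 112, 112 and 46.2 CPM in WT at day 14, and 79.6, 84.4, 101 and 113 CPM in Ago134 KO and 79.9, 82.2, 94.3 and 98.1 CPM in WT at day 7. WT library 3 of day 14 lay with the Ago134 KO libraries. For Lsm14a they were 143, 126 and 104 CPM in Ago134 KO and 68.6, 75.7 and 136 CPM in WT at day 14, and 154, 198, 132 and 113 CPM in Ago134 KO and 157, 176, 135 and 195 CPM in WT at day 7, with overlap at both days.

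Between the days, the TOB adaptors differed in opposite directions. Tob1 encodes a CCR4-NOT adaptor known as a negative regulator of T cell activation and lies on chromosome 11 (ENSMUSG00000037573, GRCm38, 94211454 to 94215495). In Ago134 KO, Tob1 stood at 51.6, 37.0 and 16.4 CPM at day 14, against 143, 195, 122 and 67.7 CPM at day 7. In WT it stood at 27.0, 25.8 and 24.0 CPM at day 14, against 197, 229.7, 172 and 202 CPM at day 7. Every day 14 library lay below every day 7 library in both genotypes, and the Ago134 KO libraries were the more scattered at each day. Tob1 fell by 1.91 on the log2 scale in Ago134 KO (SE 0.37, adjusted p = 0.00306) and fell by 2.96 in WT (SE 0.39, adjusted p = 0.000145). These are 3.77-fold lower values in Ago134 KO and 7.80-fold lower values in WT at day 14. With the coding length trend removed, Tob1 was at -1.90 in Ago134 KO and -3.03 in WT.

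Tob2, the paralog of Tob1 (ENSMUSG00000048546, GRCm38 chromosome 15, 81848272 to 81858796), ran the other way. In Ago134 KO it stood at 23.1, 62.7 and 29.2 CPM at day 14, against 22.8, 20.5, 13.3 and 14.7 CPM at day 7. In WT it stood at 63.3, 51.8 and 41.5 CPM at day 14, against 33, 30.3, 26.1 and 25.8 CPM at day 7. The days did not overlap in either genotype, though Ago134 KO library 1 of day 14 lay only just above day 7. Tob2 rose in Ago134 KO (1.10 ± 0.31, adjusted p = 0.0277) and missed the threshold in WT (0.86 ± 0.31, adjusted p = 0.0687). Without Ago134 KO library 2 of day 14 the Ago134 KO call ended and the log2 fold change was 0.55 (adjusted p = 0.249), in a fit that called 9.39% of all tested genes. The coding sequences have similar lengths, 1089 bases for Tob1 and 1038 bases for Tob2. Per kb, the median ratio of Tob1 to Tob2 was 0.562 in Ago134 KO and 0.476 in WT at day 14, and 7.36 in Ago134 KO and 6.74 in WT at day 7. Over the libraries it ran from 0.535 to 2.13 in Ago134 KO and 0.407 to 0.552 in WT at day 14, and from 4.39 to 9.07 in Ago134 KO and 5.68 to 7.44 in WT at day 7. In Ago134 KO library 1 of day 14, Tob1 still exceeded Tob2.

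**Figure D4:**
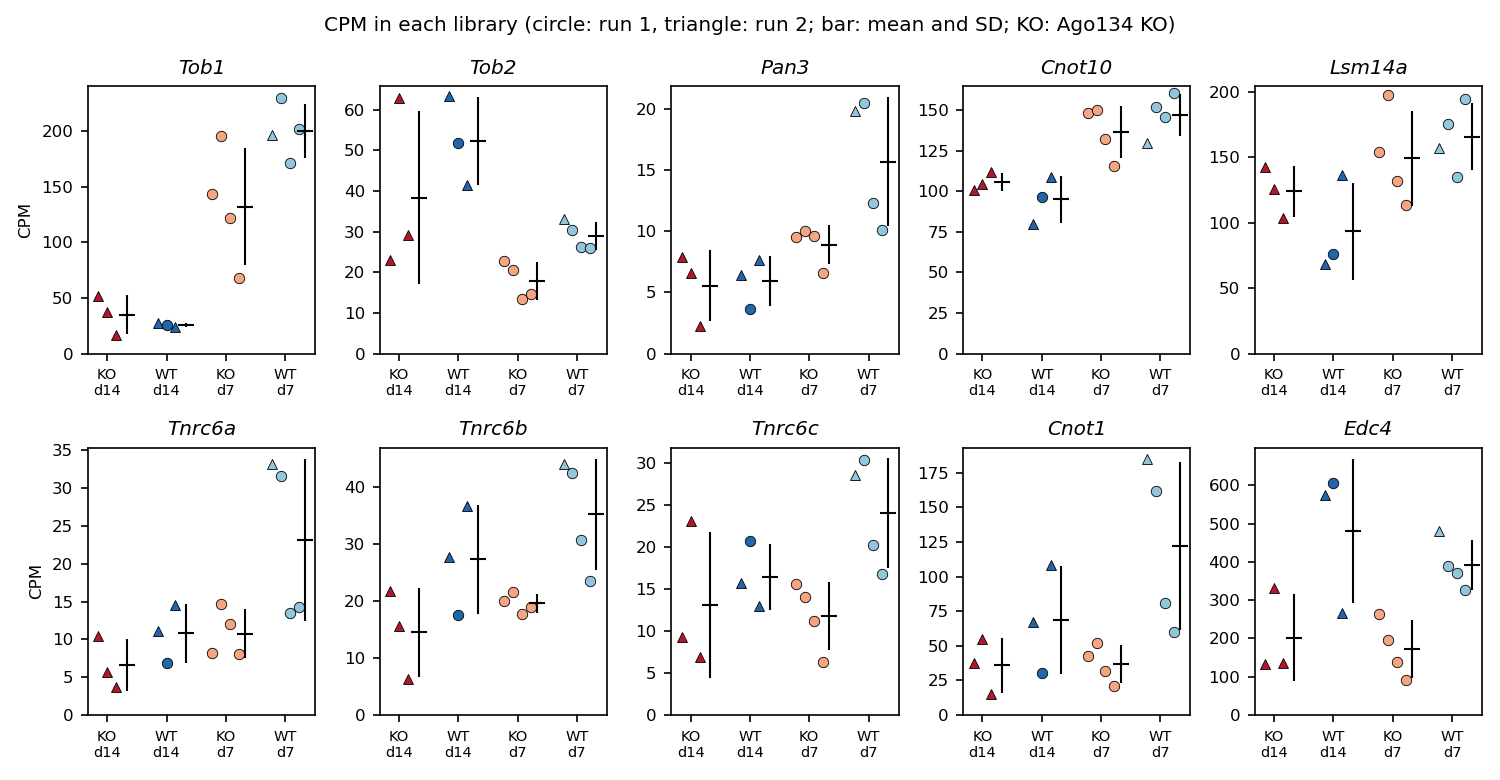
CPM of 10 genes in each library (linear axes from 0), grouped as Ago134 KO and WT at day 14 and Ago134 KO and WT at day 7. Circles and triangles mark the 2 inferred sequencing runs, and the bar is the mean and SD. Tob1 is low in all day 14 libraries and high in day 7 libraries of either run, and Tob2 is higher at day 14 than at day 7 within each genotype, while the GW182 genes, Cnot1 and Edc4 show the spread behind their uncalled genotype differences.

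The day comparison is tied to the sequencing run, which was inferred and not given. Each library comes with a lane number and an identifier, and libraries with the same identifier minus lane number were put in the same run. What the identifiers mean was not given in the sources used here. All Ago134 KO libraries of day 14 belong to run 2 and all of day 7 to run 1, so in Ago134 KO day and run cannot be told apart. In WT both runs hold both days. The log2 ratio of mean Tob1 CPM, day 14 over day 7, was -2.96 within run 1 (1 library against 3) and -2.95 within run 2 (2 libraries against 1). For Tob2 it was 0.92 and 0.67. With the run as a term in the fit, Tob1 in Ago134 KO was at -1.89 and Tob2 at 0.96, and both calls ended (adjusted p = 0.0758 and 0.272). The share of all tested genes called in Ago134 KO over time was 3.19% with the term, against 15.5% without it. The run effect in that fit rests on the WT libraries, since in Ago134 KO run goes with day. The Tob1 call in WT held in the fit with the run term (adjusted p = 0.000470), where 18.5% of all tested genes were called. Tob1 was also called in both genotypes in every fit that left out 1 library.

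The promoters of the pair are shown because their levels parted with day. Each is the 250 bases before the RefSeq start (GRCm38.p6), for Tob1 at chr11:94211204-94211453 on the plus strand and for Tob2 at chr15:81858327-81858576 on the minus strand. The RefSeq start of Tob2 lies inside the longer span given above. Capitals mark matches on either strand to GGGCGG (the GC box), to CCAAT (the CCAAT box) or to TATAAA (the TATA box). The E-box letters CACGTG, the forkhead core GTAAACA, the ETS core CCGGAAGT and the cyclic AMP element TGACGTCA were searched too.
Tob1: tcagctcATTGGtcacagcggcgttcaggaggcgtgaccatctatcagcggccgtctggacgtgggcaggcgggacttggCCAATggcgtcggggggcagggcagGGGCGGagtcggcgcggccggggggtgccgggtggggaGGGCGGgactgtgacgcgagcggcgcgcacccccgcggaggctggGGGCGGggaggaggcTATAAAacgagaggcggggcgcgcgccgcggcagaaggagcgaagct
Tob2: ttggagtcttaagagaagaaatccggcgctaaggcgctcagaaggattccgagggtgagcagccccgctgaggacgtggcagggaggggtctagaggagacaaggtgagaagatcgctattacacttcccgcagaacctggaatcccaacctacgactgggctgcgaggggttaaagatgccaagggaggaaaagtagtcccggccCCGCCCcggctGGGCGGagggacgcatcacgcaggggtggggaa
The Tob1 window holds 3 GC boxes, 2 CCAAT boxes, 1 TATA box and 32 CpG dinucleotides at 73.6% GC. The Tob2 window holds 2 GC boxes and 16 CpG dinucleotides at 60.4% GC. Of 32851 RefSeq windows of the same length, 32.7% hold a GC box, 33.8% a CCAAT box and 12.4% a TATA box. For the letters with no match in the pair, the shares are 6.02% for the E-box, 3.17% for the forkhead core, 2.88% for the ETS core and 1.55% for the cyclic AMP element. A match describes letters and is not a shown site.

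In WT, day 14 against day 7, 4 of the 35 genes were called lower and 0 higher, where 7.33% of all tested genes were called lower and 13.2% higher (20.5% in all). At an unadjusted p under 0.05, 6 were lower and 2 higher, against 13.7% and 18.8% (32.5% in all). Besides Tob1, the called genes were Pan3, Cnot10 and Lsm14a. Pan3 (ENSMUSG00000029647, GRCm38 chromosome 5, 147430161 to 147548502) stood at 6.47, 3.67 and 7.70 CPM at day 14, against 19.9, 20.5, 12.3 and 10.2 CPM at day 7, and fell by 1.40 on the log2 scale (SE 0.42, adjusted p = 0.0282). Its day 7 values split into a pair at 19.9 and 20.5 CPM (libraries 1 and 2) and a pair between 10.2 and 12.3 CPM, all above day 14. Libraries 1 and 2 were also the highest WT libraries of day 7 for Tnrc6a, Tnrc6b, Tnrc6c and Cnot1. Their slopes per doubling of coding length were 0.27 and 0.27, against 0.15 and 0.07 in libraries 3 and 4. Cnot10 (ENSMUSG00000056167, GRCm38 chromosome 9, 114585878 to 114640184) stood at 80.1, 96.4 and 109 CPM, against 129.7, 152, 146 and 161 CPM, and fell by 0.63 (SE 0.17, adjusted p = 0.0145) without overlap. Lsm14a (ENSMUSG00000066568, GRCm38 chromosome 7, 34344646 to 34393315) stood at 68.6, 75.7 and 136 CPM, against 157, 176, 135 and 195 CPM. It overlapped through day 14 library 3 and fell by 0.82 (SE 0.26, adjusted p = 0.0372). Without WT library 1 of day 14 Tob1 alone was called, without library 1 or 2 of day 7 Tob1 and Cnot10 were, and without WT library 3 of day 14 10 genes were. Those fits called 16.0%, 14.9% (for each of the pair) and 30.1% of all tested genes. Of the 7 fits that left out 1 library, Cnot10 was called in 6 (adjusted p up to 0.0676), Pan3 in 3 (up to 0.099) and Lsm14a in 2 (up to 0.151). Within runs 1 and 2 the log2 ratio of mean CPM was -1.96 and -1.49 for Pan3, -0.66 and -0.46 for Cnot10, and -1.15 and -0.62 for Lsm14a. With coding length and GC trends removed, Cnot10 was at -0.34 (adjusted p = 0.0874), and Cnot2, Cnot6 and Dcp1b were called lower in WT (-0.80, -0.56 and -0.65) and in Ago134 KO (-0.82, -0.55 and -0.40).

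The median log2 fold change of the 35 genes over time in WT was -0.40, against -0.00 for all tested genes, and 26 were below 0 (74.3%, against 50.1%). Without overlap, 7 of the 35 were lower (against 13.8% of all tested genes) and 2 higher (Cnot11 and Tob2, against 17.2%). Cnot11, which pairs with CNOT10 in the complex, stood at 101 ± 4.46 CPM at day 14 and 76.3 ± 5.60 CPM at day 7 (0.40 ± 0.17, adjusted p = 0.108), opposite in sign to Cnot10. Several CCR4-NOT genes with low coding GC content had a wide spread between the WT libraries of day 14. Cnot2, a core subunit, stood at 48.1, 12.2 and 97.3 CPM there, against 110.2, 112, 84.5 and 91.2 CPM at day 7. Cnot6l stood at 54.7, 13.5 and 109.9 CPM, against 146, 128, 99.7 and 37.1 CPM. In both, WT library 2 of day 14 was the lowest and library 3 the highest of the day 14 WT libraries. The slope of these libraries' deviations per 10 points of coding GC was 0.86 for library 2 and -0.43 for library 3. Across the 35 genes, rho between coding GC and the WT log2 fold change was 0.57, against 0.29 across all tested genes.

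In Ago134 KO, day 14 against day 7, Tob1 was called lower and Tob2 higher, where 4.92% and 10.5% of all tested genes were (15.5% in all). At an unadjusted p under 0.05, 3 were lower and 2 higher, against 10.3% and 16.8% (27.1% in all). The median of the 35 was -0.16, against 0.02, and 27 were below 0 (77.1%, against 48.7%). Without overlap, 4 were lower (Cnot8, Cnot10, Dcp1b and Tob1; 11.4%, against 10.2%) and 1 higher (Tob2, against 13.6%). Cnot10 stood at 101, 104 and 112 CPM at day 14, against 148, 150.3, 132 and 115 CPM at day 7, with a log2 fold change of -0.37 ± 0.16 (adjusted p = 0.162). Pan3 was at -0.68 ± 0.41 and Lsm14a at -0.27 ± 0.26 (adjusted p = 0.325 and 0.574). Mov10 stood at 127, 519.9 and 346 CPM at day 14, against 200.3, 91.4, 113 and 202 CPM at day 7 (1.13 ± 0.40, adjusted p = 0.0726). Library 1 of day 14 lay within the day 7 values and the other two lay above them. Without library 2 of day 14, or without library 3 or 4 of day 7, Tob1 alone was called, where 9.39%, 10.5% and 15.1% of all tested genes were. Without library 1 of day 14, 4 of the 35 genes were called, where 19.8% of all tested genes were, and Mov10 was at 1.51 (adjusted p = 0.00661). Mov10 was not called in the other 6 fits that left out 1 library, and over all 7 it ran from 0.64 to 1.51, with an adjusted p up to 0.397. The Ago134 KO and WT comparisons over time share no libraries, and no gene of the set passed the interaction test, so the calls of 1 genotype are not shown to differ from those of the other.

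**Figure D5:**
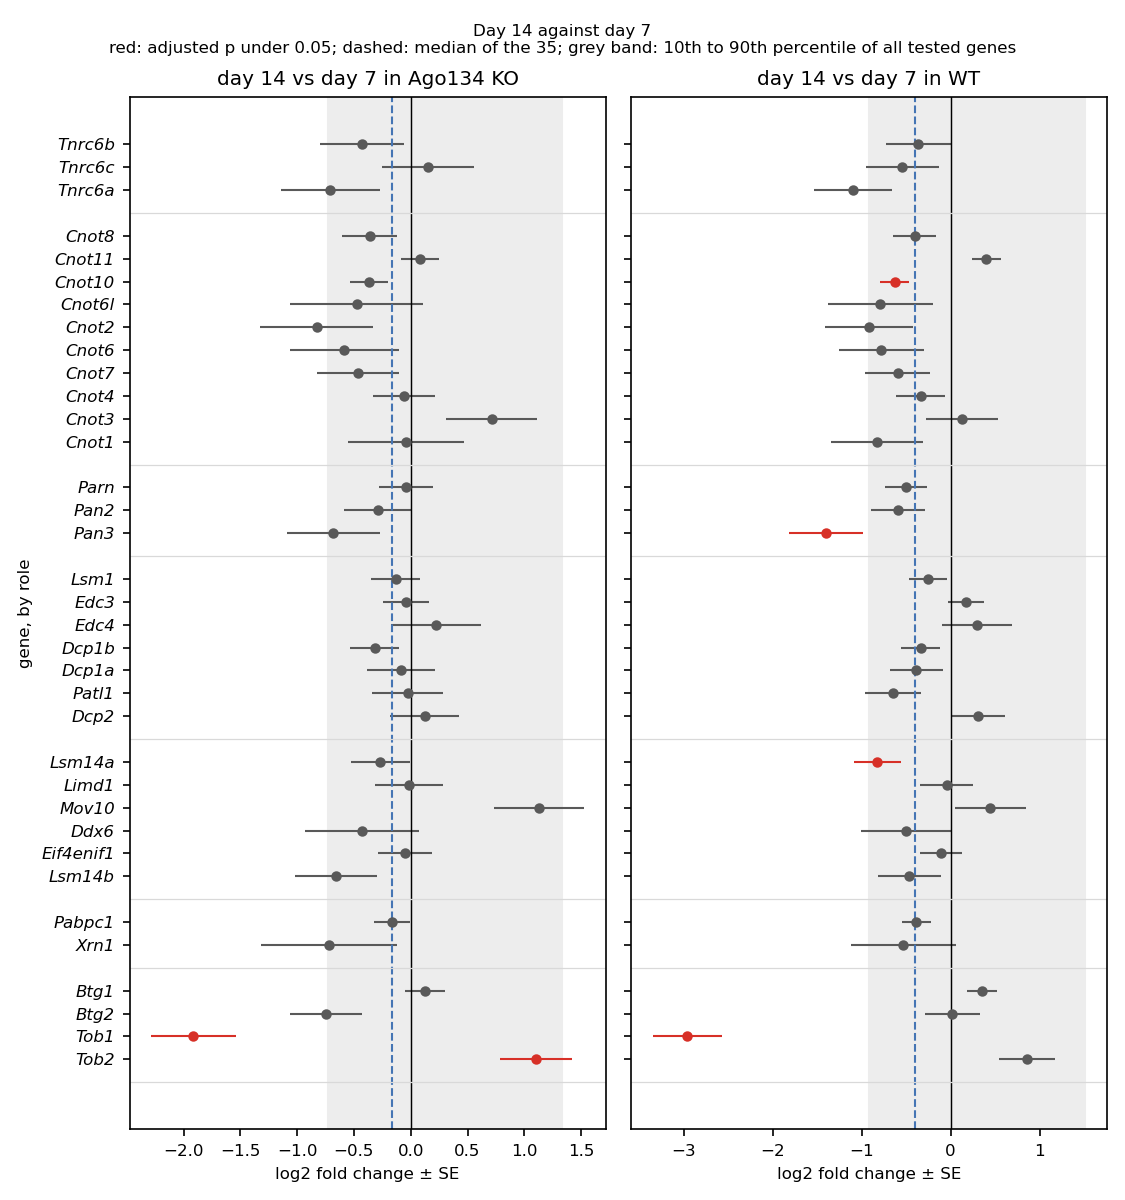
Log2 fold change ± SE of day 14 over day 7 for each gene in Ago134 KO and in WT, by role, with called genes in red. Tob1 is lowest in both genotypes (-1.91 and -2.96), Tob2 is called at 1.10 in Ago134 KO, and Pan3, Cnot10 and Lsm14a are called in WT.

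Other genes of mRNA decay were read from 5 further lists with 96 genes, 91 of them tested. Between genotypes, 0 of 91 were called at day 7 and in the interaction (against 0.0949% and 0.0863% of all tested genes), and 1 was called at day 14 (against 1.42%). That gene was Lsm4, a subunit of the LSM ring that LSM1 completes, at 136 ± 41.8 CPM in Ago134 KO and 67.1 ± 6.51 CPM in WT (1.02 ± 0.22, adjusted p = 0.0351). In Ago134 KO over time 2 were higher and 4 lower (against 10.5% and 4.92% of all tested genes). Zfp36, which encodes tristetraprolin, a protein that brings CCR4-NOT to AU-rich mRNAs, stood at 101 ± 9.03 CPM at day 14 and 364 ± 127 CPM at day 7 (-1.86 ± 0.31, adjusted p = 0.00111). In WT it stood at 101 ± 34.7 CPM at day 14 and 232 ± 52.2 CPM at day 7 (-1.20 ± 0.30, adjusted p = 0.0112). Its relative Zfp36l1 (-0.81 ± 0.26, adjusted p = 0.0498) and the m6A reader Ythdf1 (-0.56 ± 0.15, adjusted p = 0.0223) fell in Ago134 KO too, as did the nonsense-mediated decay gene Smg9 (-0.90 ± 0.23, adjusted p = 0.0168). Wtip and Zc3h12c were called higher at under 1 CPM.

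In WT over time 5 of the 91 were higher and 11 lower (against 13.2% and 7.33% of all tested genes). Arid5a, which encodes a protein that stabilizes inflammatory mRNAs, stood at 1648 ± 87.4 CPM at day 14 and 639 ± 96.9 CPM at day 7 (1.37 ± 0.21, adjusted p = 0.000374). Ajuba, a LIM protein related to LIMD1 (2.13 ± 0.47, adjusted p = 0.00517), the terminal uridylyltransferase gene Tut1 (0.73 ± 0.18, adjusted p = 0.0109), and Wtip and Zc3h12c, both under 1 CPM, were higher as well. The lower genes held 4 of 14 in nonsense-mediated decay, with Smg9 at 39.4 ± 11.4 CPM at day 14 and 89.7 ± 4.22 CPM at day 7 (-1.19 ± 0.23, adjusted p = 0.00247), and Smg6 (-0.76 ± 0.22, adjusted p = 0.0249), Upf3a (-0.61 ± 0.18, adjusted p = 0.0263) and Smg1 (-1.58 ± 0.50, adjusted p = 0.0386) beside it. They also held 3 of 19 in the exosome and SKI list, namely Hbs1l (-1.17 ± 0.24, adjusted p = 0.00330), Exosc10 (-0.68 ± 0.21, adjusted p = 0.0372) and Exosc8 (-0.73 ± 0.24, adjusted p = 0.0446), and Ythdf1 (-0.62 ± 0.16, adjusted p = 0.0106).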

How the data were processed

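For each of the 14 libraries the authors deposited a table with, per the file headers, a raw read count, an RPKM value and a width for each gene. The submitters' processing notes name GSNAP (2013-11-01) as aligner and GRCm38 as genome. The tool that counted, its gene models and its use of strand were not given in the sources used here. The RPKM values that the authors computed entered no test. Widths were mostly multiples of 3 (86.7%) and are called coding length. Symbols and loci came from GENCODE mouse release M21 (GRCm38; 22457 of 22598 identifiers had a symbol), and promoters from RefSeq (GRCm38.p6; 28 of the 35 genes matched).

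In R (4.3.3), genes passing filterByExpr (11591) were TMM-scaled and tested with edgeR (4.0.16, robust quasi-likelihood, a mean for each of the 4 groups, common biological coefficient of variation 0.354). The 5 contrasts were adjusted by Benjamini-Hochberg over all tested genes and called under 0.05. The SE is the log2 fold change over the root of F, and 95% intervals use the total degrees of freedom of the quasi-likelihood test (residual and prior together). Library totals, summed over the deposited genes, were 23326248 to 35803197 reads. These sums are 38.9% to 44.9% of the totals that the deposited RPKM values imply. Groups and replicate numbers came from the sample titles.

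Alternatives were relative log expression factors, no filter or a stricter one (at least 1 CPM in at least 3 libraries), a fit to only those libraries a contrast compares, DESeq2 (1.42.0), sample-weighted limma-voom (3.58.1), a replicate block, a run term, each library left out, and offsets for library trends over coding length, or over length and GC (natural splines, 5 degrees of freedom; coding GC known for 99.6% of tested genes). Named with every library are the called genes, the 3 smallest p-values of each comparison, the Tnrc6 genes and the extremes of level; from the further lists, up to 4 called genes each. Others stand as examples of their role. The members were picked by name and not by value, but they, the lists and the tests were chosen with earlier results of these data known.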

Additional observations from a re-analysis of the deposited data

Results flagged for a closer look

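In groups of 4 libraries, the highest and lowest value of each gene was set against the rest with Dixon's 95% criterion. Of 70 such groups (35 genes at day 7 in each genotype) 4 were flagged for 1 library far from the others, where chance flags about 1 in 20. In Ago134 KO at day 7, Cnot7 stood at 16.4 CPM in library 1, against 23.0 to 24.1 CPM in the other three. Pan3 stood at 6.60 CPM in Ago134 KO library 4 of day 7, and the next lowest library at 9.51 CPM. Lsm14b stood at 2.13 CPM in Ago134 KO library 3 of day 7, against 3.63 to 3.66 CPM in the other three, and at 3.59 CPM in WT library 4 of day 7, where the highest was 5.43 CPM. Groups of 3 libraries (day 14) were not tested in this way.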

How the results depend on the processing

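With limma-voom and sample weights, 19 of the 35 genes were called at day 7, 3 at day 14, 1 in the interaction, 4 in Ago134 KO over time and 16 in WT over time. That tool called 43.5%, 16.7%, 4.06%, 23.3% and 39.5% of all tested genes in the same order, and its interaction and WT medians were 0.35 and -0.57. DESeq2 called 1 gene at day 7 (Cnot1), and 3 and 6 over time in Ago134 KO and WT, and 3.02%, 14.8% and 19.5% of all genes it fitted. Removing coding length and GC trends gave 6 called genes in Ago134 KO over time. The interaction median in that fit was 0.050, against 0.103 for all tested genes. Over all genes there were 19 calls at day 7, 458 at day 14 and 59 in the interaction. Over time there were 2883 in Ago134 KO and 3619 in WT. With that correction and the replicate block together, 1 gene was called at day 7 (Limd1) and 1 at day 14 (Mov10). Over time, 5 were called in Ago134 KO and 8 in WT. That fit called 2.44%, 5.04%, 23.7% and 31.2% of all tested genes in that order. Its interaction median was 0.024, against 0.105 for all tested genes. Tnrc6c at day 14 turned positive with the length trend removed (0.10), with length and GC removed (0.35) and with the block added to that (0.32). Only the compared libraries gave 1 call in Ago134 KO over time, and the run term gave 0, where 13.1% and 3.19% of all tested genes were called. The causes were not tested. Leaving out 1 library at a time, the count of called genes ran from 0 to 0 at day 7, 0 to 5 at day 14, 0 to 0 in the interaction, 1 to 4 in Ago134 KO over time and 1 to 10 in WT over time (1 without WT day 14 library 1, 10 without library 3). The share of all tested genes called in those fits ran from 0.0691% to 0.0864%, 0.357% to 22.5%, 0.00849% to 3.23%, 9.01% to 19.8% and 14.9% to 30.1% in the same order. The medians ran from -0.47 to -0.20, -0.21 to -0.03, 0.11 to 0.32, -0.35 to -0.12 and -0.46 to -0.32 in that order of comparisons. Other scaling factors and filters changed no count of called members.

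Correlations of same-numbered deviations ran from -0.46 to 0.42. Differently numbered libraries were not compared, so whether replicate numbers pair the samples was not tested. With the replicate block, 0, 0, 0, 2 and 4 genes were called in the same order. That fit called 0.129%, 2.04%, 0.0604%, 13.9% and 19.2% of all tested genes. The Lsm14a call in WT ended (-0.84, adjusted p = 0.0782). Depth limits the values of genes with few reads, such as Ago1, Ago3, Lsm14b, Wtip and Zc3h12c, and less so those of Pan3, Xrn1 and Dcp2.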
